A study of Gallus gallus with 6 samples.

Results

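The step from embryonic day 16 (E16) to 1 day after hatching (D1) in leg muscle of the Xinghua chicken was described across 11036 genes. These are the genes with an FPKM of 1 or more at E16 or at D1, out of 16885 Ensembl genes in the table that compares both stages. FPKM, the fragment count of a transcript scaled to its length and to the size of the library, is the unit of all levels given. Each gene was represented by its transcript with the highest mean FPKM, and 9837 of the genes had a symbol. The lncRNAs of the same table and 16 entries in which the estimate stopped under too many fragments were left out. Just inside the level required stood IRG1 (FPKM 1.00 at E16 and 0.333 at D1), HCLS1 (1.00 and 0.868) and KCNC1 (0.728 and 1.00), and just outside it stood MAPK15 (0.999 and 0.892), SUPT3H (0.999 and 0.875) and HMHA1 (0.924 and 0.998).

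Skeletal muscle of the leg was taken from birds of this indigenous, slowly growing breed at E11, E16 and D1, which the sample labels call P1, with 2 libraries per stage and 6 in all. All libraries are labelled as female, none of the birds was treated, and ribosomal RNA was removed from total RNA before sequencing. The comparison here rests on the 4 libraries of E16 and D1. Both libraries of a stage were merged into 1 FPKM per transcript, so no spread between birds can be given for any value and no difference was tested. Differences are described as ratios on the log2 scale of D1 to E16, after 0.1 was added to each FPKM, which understates the change of genes at low levels. A gene is called higher or lower at D1 where the ratio was at least 2-fold. A gene below an FPKM of 1 at 1 stage is measured only through the other stage, so the level required sets its side. How many reads stand behind a single FPKM is not known from the table. Listed at 0 were 36 genes at E16 and 62 at D1, and no fold is given for them.

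The last days in the egg and the first after hatching change what a leg muscle has to do. New fibers form in the embryo by fusion of myoblasts, whose number grows by division, while growth after hatching comes mainly from enlargement of existing fibers. At hatching the chick begins to breathe with its lungs, to stand and to keep its own temperature, and it lives on the lipid of the yolk until it feeds. Thyroid hormone and corticosterone are both high around this time. Muscle draws ATP from creatine phosphate and glycolysis for short bursts and from mitochondria, which oxidize pyruvate and fatty acids, for sustained work.

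Across all genes the step was nearly balanced. The median log2 ratio was 0.06, the middle 50% of genes lay between -0.40 and 0.51, and 5% lay below -1.60 and 5% above 1.54. A total of 1201 genes (10.9%) stood at least 2-fold higher at D1 and 1138 (10.3%) at least 2-fold lower, 2339 (21.2%) in both directions, and the counts of every gene list below are to be read against these shares. Without the genes listed at 0, 1165 were higher and 1076 lower. At 4-fold or more, 292 genes (2.65%) were higher and 343 (3.11%) lower, 635 (5.75%) in both directions. Direction went with level. Among the tenth of genes with the highest mean FPKM, 28.2% were higher and 5.07% lower at D1, and among the tenth with the lowest, 12.0% were higher and 27.0% lower. Counts of lists made up of abundant or of low genes are to be read against these shares as well. In the plot of levels at both stages, most nuclear genes of the respiratory chain lie above the line of equal FPKM and most genes of mitosis below it.

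**Figure D1:**
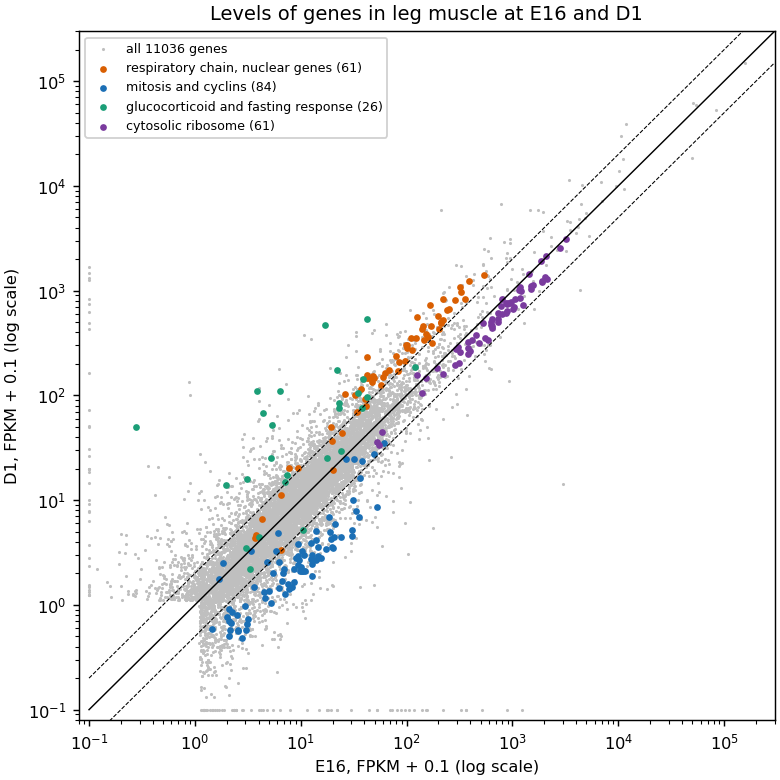
FPKM of the 11036 genes at E16 (horizontal) and at D1 (vertical), each raised by 0.1, on log scales, with the line of equal FPKM (solid) and of a 2-fold difference (dashed). Coloured points are genes of 4 groups: most of the 61 nuclear genes of the respiratory chain lie above the upper dashed line, 73 of the 84 genes of mitosis lie below the lower one, and all 61 genes of the cytosolic ribosome lie between them.

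FPKM are levels relative to the rest of a library, and the makeup of the libraries differed between the stages. Over all 11036 genes, the 10 most abundant held 51.1% of the summed FPKM at E16 and 45.0% at D1, and 218 short RNAs such as snoRNAs held 59.0% and 51.1%. Without these short RNAs, the 13 measured genes of the mitochondrial genome held 7.55% of the summed FPKM at E16 and 15.8% at D1. The 10 most abundant genes then held 15.8% and 21.8%. The entries left out for too many fragments include COX1 and unnamed mitochondrial loci. For E16 the table lists these with values from 5300 to 14858, and for D1 with 0. The share of the whole mitochondrial genome is therefore not known for either stage. When both stages were rescaled to equal sums outside the 50 most abundant genes, the median log2 ratio of all genes shifted from 0.06 to -0.24, and of the genes past 2-fold 31.1% were higher at D1 in place of 51.3%. Of the medians of 60 gene lists, 10 changed sign under this rescaling, and each is named where its list is described. Of the 120 counts of members past 2-fold in these lists, 1 per direction, 44 moved by over 1.5 times under it. Only some of these moves are given beside the counts, so a count given alone may have moved as well. Chromosomes Z and W also differed between the stages. Female chickens carry a Z and a W, and males carry a pair of Z and no W. All 6 measured genes on W were lower at D1, with a median log2 ratio of -0.95, the most abundant with 17.0 FPKM at E16 and 6.48 at D1. The 530 genes on Z had a median of 0.30, against 0.04 for the 9993 on autosomes, whose medians ranged from -0.04 to 0.16 over 27 autosomes. Stage and the sex of the birds behind the merged values cannot be told apart here, although the labels give 1 sex for all. Without both chromosomes, 1117 genes were higher and 1087 lower. Not every gene on Z is marked where it is named below. Among the higher ones NDUFS4, COX7C, ATP5A1, MCCC2 and PIK3R1 lie on Z, and among the lower ones LMNB1 and THBS4.

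The labelled tissue was borne out by its defining genes. At both stages skeletal alpha-actin ACTA1 (FPKM 11163 at E16 and 18026 at D1) and the fast troponins TNNT3 (6920 and 10813) and TNNC2 (4233 and 4825), which switch contraction on under calcium, were among the most abundant transcripts of protein-coding genes. Markers of other cells were present as well. The list for endothelium had 25 of 28 genes measured and a summed FPKM of 389 at E16 and 558 at D1, that for fat cells 13 of 22 (1143 and 2049), for macrophages and leukocytes 19 of 40 (111 and 59.9), for red cells 14 of 27 (2381 and 1184), for tendon and connective tissue 20 of 22 (2853 and 1980), for neurons 12 of 27 (79.5 and 27.2), for Schwann cells 15 of 26 (510 and 435), for cartilage 12 of 24 (199 and 236), for bone 7 of 18 (59.7 and 30.9), and for epidermis 9 of 31 (29.8 and 25.1). The fat cell sums include PNPLA2 (16.8 and 471) and CD36, which muscle fibers use as well. In the same list FABP4 stood at 499 and 594 and RBP7 at 352 and 216. In bulk muscle, fewer cells of a type and less RNA per cell cannot be told apart, and the part of these cells in the results that follow was not tested.

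Among named genes that reached an FPKM of 10 at either stage and were listed above 0 at both, UCP had the largest ratio on the higher side. This gene, the uncoupling protein of avian muscle that RefSeq names UCP3, lies at 194821405 to 194824338 on chromosome 1 of galGal4 and went from an FPKM of 0.178 at E16 to 50.1 at D1, a log2 ratio of 7.50. Parvalbumin pvalb1, which binds calcium and speeds the relaxation of fast fibers, went from 0.786 to 134 (7.25). Myoglobin MB, which stores oxygen in muscle, stood at 3.96 and 118 (4.87). ANKRD1, an ankyrin repeat protein that titin holds and that is induced by stretch and injury, stood at 10.6 and 379.7 (5.15), and its relative ANKRD2 at 3.92 and 87.8 (4.45). HSPB7, a small heat shock protein of heart and muscle, stood at 6.09 and 179.6 (4.86). KLHL38, a kelch protein of muscle, stood at 0.261 and 21.2 (5.88), BEST3, a bestrophin anion channel, at 0.346 and 20.5 (5.53), and CHAC1, which degrades glutathione, at 0.473 and 16.4 (4.85). The transcription factor KLF9, a target of thyroid hormone and glucocorticoids, stood at 3.76 and 109 (4.82), and C8orf22 at 12.3 and 346 (4.81). KLF9 lies on chromosome Z. The next gene in this order was PNPLA2, the first lipase of stored triglyceride, at 16.8 and 471 (4.80). Several of these genes were low at E16, and their ratios and order depend on the value added to each FPKM. With 1 added in place of 0.1 the log2 ratios were 6.24 for pvalb1, 5.44 for UCP and 4.14 for KLHL38, and KLHL38, BEST3 and CHAC1 left the first 10, 7 of which remained.

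By the same rule nestin NES had the largest ratio on the lower side, ahead of MAT1A, which led with 1 added to each FPKM. The gene, which encodes an intermediate filament of stem cells and young fibers, lies at 483723 to 490804 on chromosome 25 and went from an FPKM of 104 at E16 to 2.98 at D1 (-5.08). MAT1A, which makes S-adenosylmethionine, went from 176 to 5.38 (-5.01). Prepronociceptin PNOC stood at 36.2 and 1.37 (-4.62), and proenkephalin PENK, the precursor of enkephalins, at 97.1 and 5.91 (-4.01). In the table of E11 and E16, PNOC was listed at 0 at E11. The embryonic globin HBE1 stood at 58.4 and 3.56 (-4.00), and the antimicrobial peptide gallinacin 1, GAL1, at 10.9 and 0.649 (-3.87). PI15, a secreted peptidase inhibitor, stood at 20.0 and 1.43 (-3.72), and PPP2R2C, a regulatory subunit of protein phosphatase 2A, at 19.8 and 1.46 (-3.67). Of the matrix, the proteoglycan keratocan KERA stood at 17.6 and 1.33 (-3.63) and collagen col14A1 at 107 and 9.56 (-3.48). The next gene in this order was ZNF385B (11.1 and 0.925). With 1 added, 9 of these 10 remained among the first 10, and GAL1 did not.

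**Figure D2:**
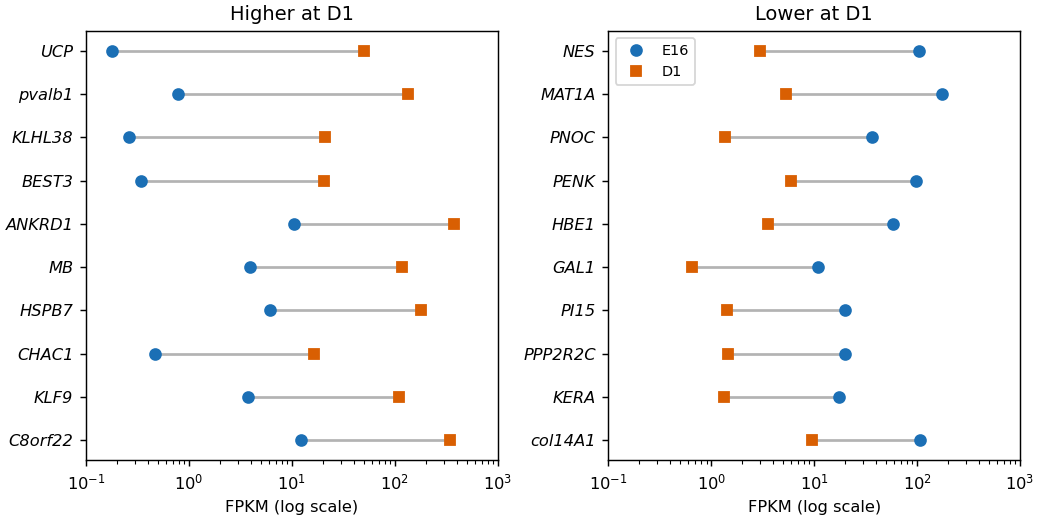
FPKM at E16 (circles) and D1 (squares) on a log scale for the 10 genes with the largest ratio in each direction, taken from named genes that reached an FPKM of 10 at the higher stage and were not listed at 0 at the other. The levels span from UCP, at 0.178 and 50.1, to ANKRD1, at 379.7 at D1, and from NES, at 104 and 2.98, to GAL1, at 10.9 and 0.649; each symbol is 1 value over both libraries of a stage.

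By difference in FPKM rather than by ratio, the mitochondrial genome led the genes with a symbol that were higher at D1. COX3, a core subunit of cytochrome c oxidase, had an FPKM of 10528 at E16 and of 29726 at D1. The entry listed as Cu, which lies on the mitochondrial chromosome where RefSeq places COX2, stood at 3424 and 11375 (1.73). The next in this order were ACTA1, whose values are given above, and the nuclear SLC25A4. Subunits of ATP synthase ATP8 (4583 and 10255) and ATP6 (1956 and 5631), ND3 of complex I (1736 and 5876) and cytochrome b, cytb (939 and 3134), were also among the first, as was TNNT3. The 12 named protein genes of this chromosome that were measured had log2 ratios from 1.16 (ATP8) to 1.81 (ND1, at 838 and 2944). COX1 was among the entries with too many fragments, as were titin, nebulin NEB and the myosin heavy chains MYH1B, MYH1C and MYH1E, and is not described. The ADP/ATP carrier SLC25A4, which exchanges ATP made in mitochondria for ADP of the cell, had an FPKM of 214 at E16 and 5926 at D1 (4.79). Its relatives differed far less, SLC25A6 with 154 and 202 (0.39) and SLC25A5 with 12.4 and 18.3 (0.56). The snoRNA SNORD59 was also high in this order (616 and 3215), at a deposited locus that it shares with ATP5B. Its value at E16 is the same as that of a short unnamed entry of the mitochondrial genome, and the reads behind either are not known. Among the largest losses in FPKM were the small RNAs SNORA73, SNORD47, SNORD17 and RNase_MRP, ribosomal proteins RPS3A (2129 and 1280), RPS15A (1907 and 1225) and RPLP1 (1889 and 1211), the elongation factor EF1A (1598 and 666), the creatine enzyme GATM (926 and 136) and the alpha-globin HBAA (1274 and 495).

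Nuclear genes of the respiratory chain were higher at D1 nearly as one group. Of 29 measured genes of complex I, which passes electrons from NADH, 28 were at least 2-fold higher and none lower, with log2 ratios from 0.93 to 1.98 and a median of 1.49, against 0.06 for all genes. NDUFA4 had an FPKM of 327 at E16 and of 962 at D1, NDUFB5 at 250.4 and 664 and NDUFS4 at 25.9 and 102. All 8 genes of complexes II and III were higher (median 1.53), with UQCR10 at 221 and 838 and UQCRC1 at 143 and 459. For cytochrome c oxidase 7 of 13 were higher (median 1.09), among them COX4I1 (534 and 1407), COX6C (392 and 1244) and COX7C (42.6 and 231). The 6 within 2-fold were the subunit COX7A2, the copper chaperone COX17 and the assembly factors SURF1, COX11, COX15 and SCO1. For ATP synthase 8 of 11 were higher (median 1.27), with ATP5A1 at 168 and 729.6 and ATP5B at 288 and 823, while ATP5S stood at 6.43 and 3.23. Under the equal sums the higher genes numbered 5 for complexes II and III and 5 for ATP synthase. The summed FPKM of each of these lists at D1 was from 2.70 to 2.96 times that at E16.

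The same direction held for the machinery that feeds this chain. Of 29 genes of the tricarboxylic acid cycle and the entry of pyruvate, 23 were higher and none lower (median 1.52). Isocitrate dehydrogenase IDH3A went from an FPKM of 63.4 to 477 (2.91), citrate synthase CS from 32.3 to 120 (1.89) and pyruvate dehydrogenase PDHA1 from 63.4 to 377 (2.57). The cytosolic forms ACO1 (10.4 and 8.67) and IDH1 (37.1 and 29.4) were the members below 0. PDK4, the kinase that shuts off pyruvate dehydrogenase and is induced by fasting, stood at 42.3 and 533 (3.65). Of 37 genes of fatty acid uptake and oxidation, 21 were higher and 1 lower (median 1.13). The fatty acid carrier FABP3 stood at 545 and 2497 (2.20), the transporter CD36 at 83.2 and 363 (2.12), ACSL1, which activates long-chain fatty acids, at 80.9 and 387 (2.26), and HADHB of the mitochondrial trifunctional protein at 86.8 and 406 (2.22). The carnitine enzymes CPT1A (17.5 and 25.1) and CPT2 (35.5 and 60.6) were within 2-fold, and the peroxisomal EHHADH was lower (2.77 and 1.23). For ketone bodies and branched-chain amino acids 4 of 19 were higher (median 0.80), namely BDH1 (15.3 and 65.9), MCCC2, BCKDHB and HIBCH.

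Genes of carbohydrate use were higher at D1 in smaller number. Of 23 glycolytic genes 11 were higher (6 under the equal sums) and 3 lower (median 0.94). GAPDH had an FPKM of 1932 at E16 and of 3717 at D1, TPI1 at 582 and 1385, and lactate dehydrogenase LDHA at 144 and 609 (2.08). Among the lower genes were the aldolase ALDOC (303 and 147) and the regulatory enzyme PFKFB4 (32.2 and 13.5). In glycogen metabolism 9 of 16 were higher and 1 lower (median 1.16). UGP2, which makes UDP-glucose, stood at 40.9 and 225 (2.46), and PPP1R3C, which brings protein phosphatase 1 to glycogen, at 7.42 and 91.6 (3.61). The subunits of phosphorylase kinase went apart, PHKA1 of muscle with 6.08 and 49.3 and PHKA2 of liver with 15.9 and 4.61 (-1.77).

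Creatine and methyl metabolism was the only energy list with a median below 0 (-0.56), with 2 of 11 higher and 5 lower. Without chromosomes Z and W the higher genes numbered 1, as CKMT2 lies on Z. Beside MAT1A, the lower members were GATM, which makes the precursor of creatine (FPKM 926 and 136, -2.77), GNMT (50.6 and 6.86, -2.86) and AHCY (133 and 46.4, -1.51), which use and clear S-adenosyl compounds, and the deaminase AMPD3 (51.9 and 24.8). The mitochondrial creatine kinase CKMT2, by contrast, went from 27.7 to 301 (3.44), and ADSSL1 of the purine nucleotide cycle from 95.4 to 315 (1.72). Enzymes such as MAT1A and GNMT are best known from liver. The list of plasma proteins had 20 of 54 genes measured, 3 higher and 4 lower. Their median was 0.14, below 0 under the equal sums and -0.26 with no filter on low values. Albumin ALB stood at 4.25 and 0.313, AHSG at 43.0 and 18.5 and APOA1 at 32.8 and 404. A part of liver RNA in these values was not tested.

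In the list of fatty acid and triglyceride synthesis 9 of 22 were higher and 2 lower (median 0.27, below 0 under the equal sums). The higher ones include PNPLA2, given above, which is a lipase and not an enzyme of synthesis. ACACA, which makes malonyl-CoA, had an FPKM of 2.67 at E16 and of 38.7 at D1 (3.81) and the phosphatidate phosphatase Lpin1 at 2.77 and 31.8 (3.47). The last enzyme of triglyceride synthesis, DGAT2, was lower (12.5 at E16, log2 ratio -2.97), as was MOGAT1. For cholesterol synthesis 3 of 20 were higher, FDPS (9.11 and 30.0), HMGCS1 (20.0 and 54.5) and STARD4 (1.56 and 3.96). HMGCS1 and STARD4 lie on chromosome Z, and without Z and W the higher genes numbered 1.

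Genes that respond to glucocorticoids and fasting had the highest median of all 60 lists (1.80), with 18 of 26 higher and 1 lower, the metallothionein MT4 (FPKM 10.3 and 5.09). The lists were written with earlier results of these data known, so this rank is a description only. UCP, KLF9, PNPLA2 and PDK4 are members and are given above, and each of them counts in another list as well. The co-chaperone of the glucocorticoid receptor, FKBP51, stood at 6.26 and 109 (4.10), glutamine synthetase GLUL at 5.21 and 52.3 (3.30), SESN1, which restrains mTORC1, at 21.7 and 176 (3.02), the transcription factor KLF15 at 22.9 and 84.9 (1.89), the kinase SGK1 at 38.8 and 142 (1.87), and TSC22D3, known as GILZ, at 23.0 and 76.5 (1.73). The receptor itself, NR3C1, stood at 24.7 and 20.9 (-0.24). In the list of hormone receptors and coactivators 8 of 26 were higher and none lower (median 0.42). The thyroid hormone receptor THRA stood at 18.8 and 34.7 (0.88), the entry listed as PPAR, a nuclear receptor of lipid metabolism, at 14.6 and 80.5 (2.46), and ESRRG at 18.8 and 42.4 (1.17). PPARGC1A, a coactivator of mitochondrial genes, stood at 15.5 and 21.7 (0.48), and TFAM, which packs mitochondrial DNA, at 32.9 and 43.9 (0.41). In the axis of growth hormone, IGF and insulin, 5 of 22 were higher and none lower (median 0.41): CISH (3.29 and 31.0), GRB10 (9.18 and 45.4), PIK3R1, IGFBP5 and IGFBP7. IGF-I (16.6 and 17.0), IGF2 (8.53 and 8.81) and the receptor GHR (48.1 and 50.1) were nearly equal at both stages.

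Immediate early genes, which are switched on within minutes of a stimulus, were all above 0 where measured. Of 22, 14 were at least 2-fold higher and none lower (median 1.57). With no filter on low values 1 was lower. FOS had an FPKM of 1.29 at E16 and of 19.1 at D1 (3.79), JUN at 72.7 and 171, ATF3 at 13.4 and 76.5 (2.50), and CYR61 and CTGF, secreted proteins induced by load on cells, at 3.88 and 56.6 (3.83) and at 8.29 and 67.9 (3.02). EGR1 stood at 30.6 and 47.1. Of 18 genes of the circadian clock 8 were higher and none lower (median 0.56). Among them were REV-ERBb, a repressor (5.21 and 27.4), USP2 (12.3 and 50.4), PER3 (1.70 and 4.95), PER2 (7.28 and 17.2) and CLOCK (13.4 and 33.1), while BMAL1, the partner of CLOCK, stood at 10.8 and 8.98. The hour of sampling is not given in the sources used here, and its part in these 2 lists was not tested.

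Transcripts of some genes of protein breakdown were higher at D1. In the list of atrophy and autophagy genes 11 of 35 were higher (7 under the equal sums) and 1 lower (median 0.69). The ubiquitin ligases of muscle wasting FBXO32 and TRIM63 stood at an FPKM of 4.27 and 67.4 (3.95) and of 41.9 and 97.1 (1.21), the autophagy receptor SQSTM1 at 9.17 and 68.4 (2.88), and the kinase ULK1, which starts autophagy, at 4.58 and 21.1 (2.18). MAP1LC3A was higher (20.5 and 74.7) and MAP1LC3C lower (4.21 and 0.610). FOXO3, a transcription factor over several of these genes, stood at 38.2 and 76.4, at the 2-fold limit. Of 34 proteasome genes 3 were higher, PSMD1, PSMD14 and PSMB4, though none under the equal sums, and 29 were above 0 (median 0.60). Among 42 heat shock proteins and chaperones 10 were higher and none lower (median 0.45), with HSPA8 at 154 and 544 (1.82), HSP90AA1 at 278 and 614 (1.14) and DNAJA4 at 34.3 and 156 (2.18). In the list of the integrated stress response and amino acid supply, 9 of 32 were higher and 4 lower (median 0.18, below 0 under the equal sums). The transporters SLC38A2 (26.7 and 157, 2.55) and SLC38A4 (1.51 and 13.8, 3.11) were higher, and the lower genes were ASNS (8.05 and 3.39) and PHGDH (6.63 and 1.37), which make asparagine and serine, and the transporters SLC7A5 (6.33 and 2.57) and cat-1 (12.1 and 3.46). Of 38 antioxidant genes 4 were higher (1 under the equal sums) and 3 lower (median 0.21, below 0 under the equal sums), with the mitochondrial superoxide dismutase SOD2 at 125 and 361 (1.53).

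**Figure D3:**
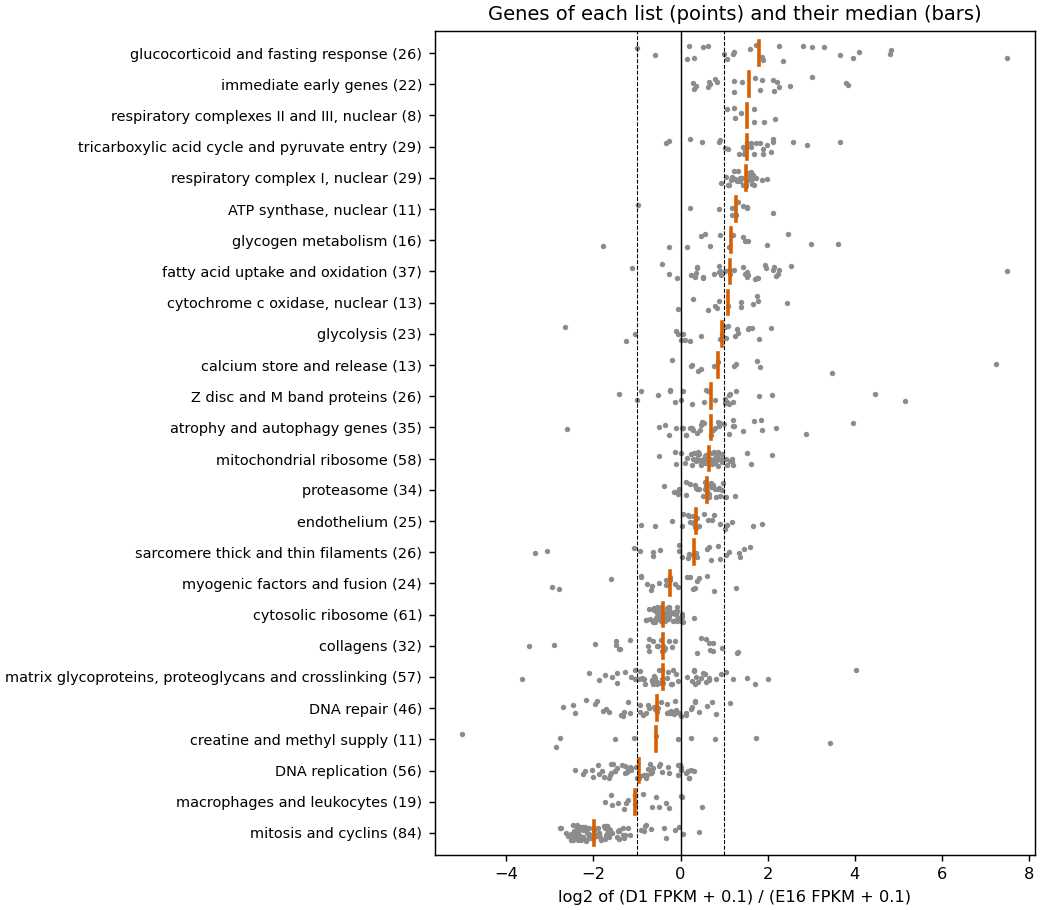
Log2 ratio of D1 to E16 FPKM, each raised by 0.1, of every measured gene (grey points, spread vertically for legibility) in 26 gene lists, with the median of each list (bar) and its number of genes in parentheses. Dashed lines mark 2-fold; medians run from -1.98 for mitosis and cyclins to 1.80 for the glucocorticoid and fasting response.

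Genes of cell division made up the list with the largest share of members lower at D1. Of 84 genes of mitosis and the cyclins 73 were lower and none higher (median -1.98). The mitotic kinases PLK1 and CDK1 went from an FPKM of 12.7 at E16 to 1.80 at D1 (-2.76) and from 52.8 to 8.49 (-2.62), and CKAP2 of the spindle from 30.3 to 4.44 (-2.74). The 11 genes within 2-fold were the cyclins of the G1 phase CCND1 (61.3 and 35.4), CCND2 (37.7 and 23.6), CCND3 (1.76 and 2.39) and CCNE1 (3.26 and 3.19), together with MLF1IP, CDCA8, KIFC1, CKAP5, CENPQ, BUB3 and CDC25A. In DNA replication 26 of 56 were lower and none higher (median -0.94), with TOP2A at 31.9 and 5.92 (-2.41), RRM2, which makes deoxynucleotides, at 17.9 and 3.74 (-2.23), and PCNA at 49.4 and 24.6. Of 46 DNA repair genes 14 were lower, among them EXO1 (5.46 and 0.763) and BRCA1 (11.5 and 1.98), and 1 was higher, NBN (4.88 and 10.8). The median was -0.53. Genes that hold cells out of the cycle stood higher in part. Of 20, 6 were higher and 2 lower (median 0.54), with BTG2 at 12.8 and 56.4 (2.13), BTG1 at 93.5 and 193, TOB at 60.3 and 140 and TOB2 at 9.71 and 38.9, while CDKN1B (48.1 and 51.3) was nearly equal at both stages. The lower ones were CDKN3 (3.60 and 0.690) and RBL1 (7.08 and 3.48). Of 57 genes of histones and chromatin 1 was higher, TET2, and 4 were lower: the nuclear lamins LMNB1 (26.3 and 6.64) and LMNB2 (131 and 38.4), HMGB2 (53.5 and 14.6) and H2AFX. This median was -0.22.

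Of 24 myogenic factors and genes of fusion 1 was higher and 3 lower (6 under the equal sums, median -0.24), and 20 stood within 2-fold, as did 78.8% of all genes. Myomaker, listed as TMEM8C, which fuses myoblasts, had an FPKM of 4.58 at E16 and of 0.509 at D1 (-2.94), myogenin MYOG, the factor of differentiating myoblasts, at 10.7 and 1.47 (-2.78), and myostatin GDF8, which limits muscle mass, at 91.1 and 30.3 (-1.58). The histone methyltransferase of myofibers SMYD1 stood at 67.5 and 164 (1.28). MYOD1 (57.5 and 98.3) and MYF6 (log2 ratio 0.60) stood within 2-fold on the higher side, and MYF5 (2.30 and 1.40) and the satellite cell factor Pax-7 (7.04 and 4.10) within 2-fold on the lower side.

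Of 26 genes of thick and thin filaments 6 were higher and 3 lower, with a median of 0.32 that came to 0.01 under the equal sums. Among the higher ones were the light chains of slow fibers MYL3 (FPKM 942 and 2858) and Myl2 (899 and 2275), LMOD2, MYOM2 and lasp-2. The lower ones are forms of the embryo and the heart: cardiac troponin T TNNT2 (262 and 25.7, -3.34), the embryonic light chain MYL4 (8.45 and 0.917, -3.07) and cardiac actin ACTC1 (756 and 364, -1.06). In the list of the Z disc and M band 12 of 26 were higher and 1 lower (4 and 3 under the equal sums, median 0.71), among them PDLIM3 (252 and 1084, 2.11), SYNPO2L (39.2 and 138), LDB3 (363 and 783) and MYOZ2 (202 and 421), against PDLIM7 (12.0 and 4.48). Alpha-actinin ACTN2 (1612 and 2339) and MYOZ1 (624 and 1083) were within 2-fold. Of 44 pairs of related genes, 20 had both measured, and in 9 of them the gene named first here gained at least 2-fold over its partner. The order does not mark a mature form in every pair, as for MYOD1 and MYOG. PDK4 made up 43.3% of the summed FPKM of PDK3 and PDK4 at E16 and 77.4% at D1, FABP3 52.2% and 80.8% of FABP3 and FABP4, and MYOD1 84.4% and 98.5% of MYOD1 and MYOG. ACTA1 went from 93.7% to 98.0% of ACTA1 and ACTC1, and TNNT3 from 96.4% to 99.8% of TNNT3 and TNNT2. In 2 pairs the gene named first lost at least as much. MYL1, which stood at 4139 and 4026, went from 81.5% to 58.5% of MYL1 and MYL3, and the glucose transporter SLC2A3 from 72.7% to 56.5% of SLC2A3 and SLC2A1. The slow and fast pairs of troponin I and troponin C and the tropomyosins shifted by less than 2-fold.

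**Figure D4:**
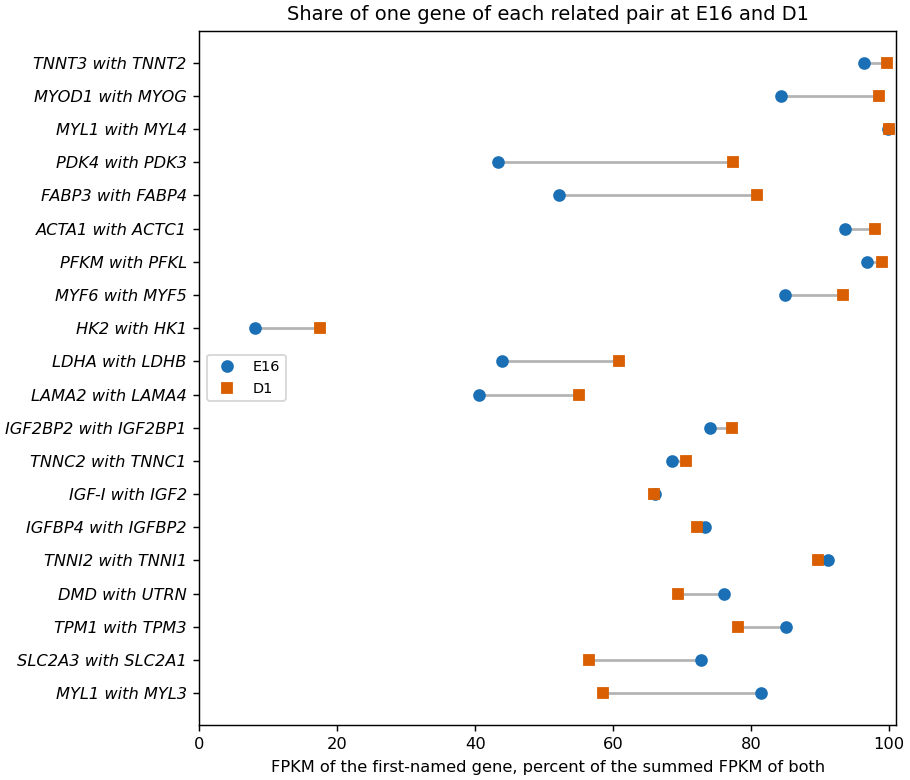
Share of the first-named gene in the summed FPKM of each of 20 pairs of related genes, in percent, at E16 (circles) and D1 (squares), 1 value per stage over both libraries. PDK4, FABP3 and LDHA gained shares at D1, from 43.3% to 77.4%, from 52.2% to 80.8% and from 43.9% to 60.9%, and MYL1 lost share to MYL3, from 81.5% to 58.5%.

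Of 13 genes of the calcium store 6 were higher and none lower (median 0.85). Beside pvalb1, phospholamban PLN, the inhibitor of the calcium pump of slow fibers and heart, stood at an FPKM of 33.0 and 368 (3.48), junctophilin JPH1, which holds the store to the T-tubule, at 87.0 and 309.7 (1.83), and the calcium channel CACNA1S, the voltage sensor of that junction, at 24.9 and 83.6 (1.74). Calsequestrin CASQ2, which stores calcium, was within 2-fold (882 and 1038). Among ion channels and pumps of the membrane 8 of 40 were higher (4 under the equal sums) and 4 lower (median 0.52). The chloride channel CLCN1, which steadies the resting fiber, stood at 1.03 and 27.3 (4.60), the sodium channel of adult muscle SCN4A at 6.08 and 37.1 (2.59), and the potassium channel IRK1 at 36.2 and 94.7 (1.39). The lower ones were the calcium channel CACNA1H (3.56 and 0.404, -2.86), KCNJ3, KCNK2 and the touch channel PIEZO2 (15.0 and 3.64, -2.02). At the neuromuscular junction 1 of 12 was higher, SCN4A, and 1 lower, AGRN, and in the dystrophin complex 1 of 19 was higher, SGCA, and 1 lower, CAV3 (129 and 53.6, -1.27). The medians of these lists, 0.29 and 0.15, turned negative under the equal sums. Dystrophin DMD stood at 129 and 119.

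None of 61 genes of the cytosolic ribosome passed 2-fold as deposited, where under the equal sums 3 were lower, and 56 of them were below 0, with log2 ratios from -0.79 to 0.32 and a median of -0.40. Their summed FPKM at D1 was 0.796 times that at E16. Of 58 genes of the mitochondrial ribosome 9 were higher (3 under the equal sums), none lower and 55 above 0 (median 0.66), with MRPS31 at 33.8 and 144 (2.09). Of 37 translation factors and ribosome assembly genes 1 was higher, EIF4EBP1, a brake on cap-dependent translation (326 and 768, 1.23), and 1 was lower, EF1A (median 0.06, below 0 under the equal sums). The symbol EF1A is used at a pair of loci, which were looked at after their values had been seen. The one on chromosome 3, where RefSeq has the widely expressed EEF1A1, stood at 1598 and 666 (-1.26), and the one on chromosome 20, where RefSeq has the muscle and nerve form EEF1A2, at 420.3 and 1126 (1.42).

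Genes of the extracellular matrix stood lower at D1 by a small margin. Of 32 collagens 2 were higher and 8 lower (median -0.41). The abundant fibrillar collagens COL3A1 (FPKM 1567 and 1225) and COL1A2 (1274 and 893) were within 2-fold. The largest ratios were those of col14A1 and COL20A1 (73.6 and 9.77, -2.90), which sit on fibrils, and of COL22A1 of the junction of muscle and tendon (11.4 and 2.87, -1.96). The higher ones were COL4A5 (33.5 and 83.6) and COL4A6 (23.0 and 56.9) of basement membrane. Of 57 matrix glycoproteins, proteoglycans and crosslinking enzymes 6 were higher and 11 lower (17 under the equal sums, median -0.41), with THBS1 at 4.87 and 80.2 (4.01) but THBS4 at 42.0 and 9.65 (-2.11). In the list of tendon and connective tissue cells, which shares KERA, col14A1 and THBS4 with those lists, 2 of 20 were higher, MKX and FMOD (24.2 and 70.3), and 5 lower, among them LUM (301 and 82.9, -1.86). This median was -0.36. Of 21 laminins and integrins none was higher and 2 were lower, LAMB4 and ITGA4 (median -0.05).

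In the TGF-beta and BMP list 2 of 35 were higher, among them BMP4 (2.49 and 7.23), and 7 lower, among them TGFB3 (96.1 and 36.6). In the Wnt list 2 of 34 were higher, WNT5A (4.83 and 13.2) and WNT2B, and 7 lower (11 under the equal sums), among them LGR5 (3.55 and 0.595) and SFRP2 (19.9 and 5.82). The Notch and hedgehog list had 1 of 23 higher, HES1, and 2 lower, HES5 and BOC, and the list of FGF, PDGF and VEGF had 1 of 40 higher, Fgf9, and 4 lower, FGF4 (8.08 and 1.54), FGFR2, FGFR3 and FGFR4. Of 26 Hox and limb genes 1 was higher, HOXA6, and 4 lower, EN1, cdermo-1, HOXC6 and HOXD8 (median 0.10, below 0 under the equal sums). In the axon guidance list 2 of 47 were higher, NTN4 and EphA2, and 7 lower (16 under the equal sums), among them PLXNA2 and SEMA6B. Of 24 RNA binding proteins of embryonic growth 2 were higher, MBNL2 and RBM38, and 1 was lower, CELF2. The medians of the other lists of this group ran from -0.39 for axon guidance to -0.03 for FGF, PDGF and VEGF. Several genes named here stood at low levels, such as HOXA6 (0.491 and 1.08), EN1 (1.04 and 0.348) and HES5 (1.07 and 0.108). With 1 added to each FPKM, no Hox or limb gene was past 2-fold and no axon guidance gene was higher. Of the FGF, PDGF and VEGF list 2 were then lower and none higher, and of the TGF-beta and BMP list 4 were lower.

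Markers of other cells differed by type. Of 19 measured markers of macrophages and leukocytes 10 were lower and none higher (median -1.04). With 1 added to each FPKM 3 were lower, and of those with a larger FPKM of 5 or more 4 were lower. Several of the lower ones stood at low levels, such as CCR2 (FPKM 3.58 and 1.00) and MPEG1 (2.03 and 0.604). Among all genes of the lowest 10% by mean FPKM, 27.0% were lower as well. The invariant chain Ii stood at an FPKM of 36.4 and 15.6 and the macrophage receptor CSF1R at 12.6 and 6.04. The transcription factor SPI1 stood at 4.41 and 1.79. PTPRC, carried by all leukocytes, stood at 2.64 and 2.20. Of 12 neuronal markers 5 were lower and 1 higher, RTN1 (median -0.84, which was -2.32 with a larger FPKM of 5 or more and -0.24 with no filter), with DCX of migrating and growing neurons at 41.3 and 6.40 (-2.67) and SCG3 at 10.9 and 2.11. Of 7 bone markers 4 were lower (median -1.04), among them SPP1 (5.53 and 0.371) and IBSP (1.98 and 0.0382). With 1 added to each FPKM 2 were lower, and with no filter on low values 8 were. SPP1, IBSP and ALPL, another of the lower ones, were below 1 at D1 and were measured only through E16. In the red cell list the globins were lower, HBAA, HBAD (291 and 104), HBG2 (544 and 249.6) and HBE1, whose reads can be shared between like copies, while membrane proteins of red cells such as SLC4A1 (4.52 and 4.34) and SPTB (23.4 and 23.6) were nearly equal. TFRC and SCL were higher (median -0.03, at 0.01 with a larger FPKM of 5 or more). Of 25 endothelial genes 5 were higher and none lower (2 and 1 under the equal sums, median 0.35). PECAM1, a contact protein of vessel walls, stood at 112 and 184 and CDH5 at 90.3 and 78.5. The clotting factor VWF was higher by a log2 ratio of 1.87. Of 16 markers of smooth muscle and pericytes 4 were higher, TAGLN, RGS5, LMOD1 and SYNM (median 0.18, below 0 under the equal sums). Of 13 fat cell genes 6 were higher and 2 lower (median 0.66). The lower ones were CIDEA (16.7 and 6.56) and DGAT2, FABP4 stood at 499 and 594 and RBP7 at 352 and 216, and PNPLA2 and CD36, which muscle fibers use as well, are among the higher ones. Of 15 markers of Schwann cells 1 was higher, S100B, and 1 lower, NGFR (median -0.47), with myelin gene MBP at 209 and 150.4. Cartilage had 2 of 12 higher, COMP (17.3 and 74.4) and CHAD (7.60 and 28.9), and 4 lower, LECT1, PTH1R, COL9A1 and COL9A3 (median -0.28). Epidermis had 1 of 9 higher, DSG2, and 2 lower, GRHL1 and GRHL3 (median -0.19). With 1 added to each FPKM, 2 cartilage genes were lower and no epidermal gene was past 2-fold. Of 23 interferon and antiviral genes 2 were higher, IFIH1 (0.837 and 2.18) and IRF1, and 2 lower, TLR7 (1.05 and 0.207) and TPN (2.49 and 0.821). Their median was 0.18, below 0 under the equal sums. None of them was past 2-fold with 1 added to each FPKM or with a larger FPKM of 5 or more.

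The step from E16 to D1 differed in its leading groups from the step before it. Both steps share the E16 libraries, and the tables were scaled separately: the same transcript at E16 had a median FPKM here of 0.705 times that in the table of E11 and E16. Both steps were described over genes that reached an FPKM of 1 at E16 or D1 here, so genes seen only at E11 are missing from the first. The medians are therefore set side by side only. Thick and thin filaments had a median log2 ratio of 3.36 from E11 to E16 and 0.32 from E16 to D1, the Z disc and M band 2.69 and 0.71, and calcium release 2.82 and 0.85. Complex I had 1.42 and 1.49, the tricarboxylic acid cycle 1.12 and 1.52, and fatty acid oxidation 1.30 and 1.13. Larger over the later step were the glucocorticoid and fasting list (0.95 and 1.80), immediate early genes (0.32 and 1.57) and, downwards, mitosis and cyclins (-0.77 and -1.98). Creatine and methyl supply had 2.42 and -0.56, leukocytes 0.33 and -1.04, collagens 0.39 and -0.41 and the cytosolic ribosome 0.51 and -0.40. GATM, for example, stood at an FPKM of 37.0 and 1313 in the table of E11 and E16 before it stood at 926 and 136 here, and MAT1A at 53.0 and 250.3 before 176 and 5.38. UCP (0.137 and 0.252) and pvalb1 (0.950 and 1.11) were low at E11 and E16 alike.

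**Figure D5:**
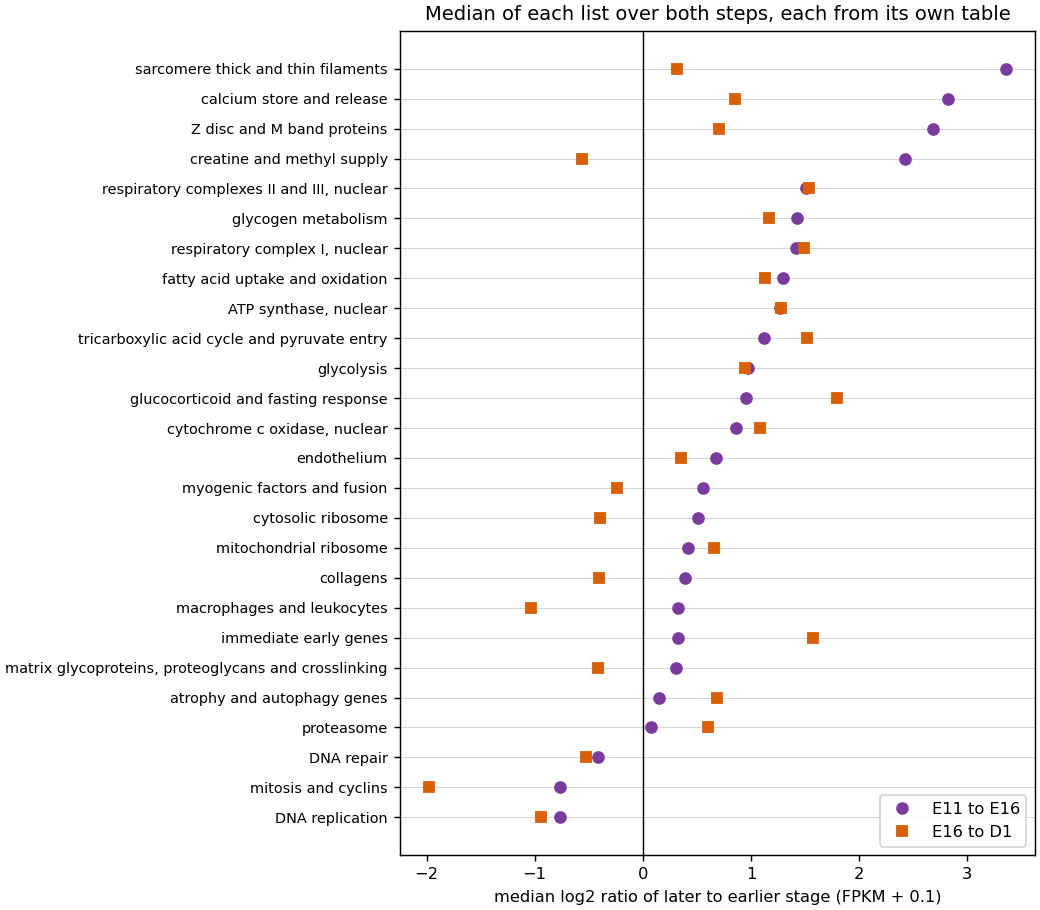
Medians of 26 gene lists for the log2 ratio of the later stage to the earlier, after 0.1 was added to each FPKM, from E11 to E16 (circles) and from E16 to D1 (squares), each from its own table. Lists of the sarcomere lie far to the right only for the first step (3.36 and 0.32 for thick and thin filaments), respiratory lists lie to the right for both, and creatine and methyl supply lies on opposite sides (2.42 and -0.56).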

How the data were processed

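Leg muscle RNA of E16 and D1, 2 libraries per stage, was analysed from the table in which the authors compared both stages. Ribosomal RNA was removed from total RNA, and reads were mapped to the galGal4 genome with TopHat2 and assembled with Cufflinks by the authors, with Trim Galore and Bowtie also named in the labels, where no versions are given. The FPKM values were made by the authors with the Cufflinks tools and deposited as 1 value per transcript and stage over both libraries, so the table gives neither read counts nor a value per library. The deposited table also holds the authors' own comparison (log2 fold change, test statistic, p-value, q-value and a call), and none of these was used. A symbol stands for the locus where its entry was highest, and entries at other loci or without a symbol were counted per locus. Gene names were matched in upper case and through RefSeq synonyms (assembly GRCg7b, names and neighbours only), 44 of them by alias. Positions are those of the deposited loci, counted from 1.

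The ratio was log2((D1 + 0.1)/(E16 + 0.1)), with a larger FPKM of 1 or more required. Groups were described by counts past 2-fold and medians of 60 lists with 1584 measured genes, beside the same over all genes. Members, lists and pairs were chosen with earlier results of these data known. Named are the 10 genes with a symbol per direction with the largest ratio (FPKM of 10 or more at the higher stage and above 0 at the lower), the 10 with the largest difference in FPKM, in each list the 3 with the highest mean and the 3 past 2-fold with the largest ratio, all past 2-fold where they number 5 or fewer, and both genes of each pair; other genes were named after their values were seen. Other pseudocounts, filters, folds, scalings and sums over transcripts were tried, and 3 exclusions (short RNAs, genes without a symbol, chromosomes Z and W) were added after the data were seen. Python 3.11.15 with numpy 2.4.6, pandas 2.3.3 and matplotlib 3.10.9 was used, and the code was tested on simulated data. Some genes that this rule names are not reported here.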

Additional observations from a re-analysis of the deposited data

How the results depend on the processing

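No paired analysis was possible because both libraries of a stage were merged into 1 FPKM, and for the same reason no replicate could be left out. Of the genes past 2-fold, 1201 were higher and 1138 lower, 2339 in all (51.3% higher). At 1.5-fold these were 2445 and 2050 (4495), and at 4-fold 292 and 343 (635). With a larger FPKM of 5 or more, 1552 genes passed and 608 were lower, and with a pseudocount of 1, 744 were lower; both settings leave fewer low genes to pass. With sums made equal outside the 50 most abundant genes, 779 were higher and 1722 lower (31.1% higher), a shift of all ratios by construction. The median of the neuron list (-0.84) was -2.32 with an FPKM of 5 or more and -0.24 with no filter, over other members. No result changed from one side of 2-fold to the opposite side. Of 389 named genes, 300 stayed on the same side of 2-fold under every alternative that gave a value for them (81 had none in at least 1) and 89 crossed it. The medians of 10 of 60 lists changed sign under the equal sums, that of red cells (-0.03) with an FPKM of 5 or more (0.01) and without chromosomes Z and W (0.0026), and that of plasma proteins with no filter (-0.26). Of 120 list counts, 44 moved by over 1.5 times under the equal sums, 31 with an FPKM of 5 or more, 26 with a pseudocount of 1 and 12 with no filter. The exclusions of short RNAs, of genes without a symbol and of chromosomes Z and W, chosen after the data were seen, left the counts of all genes within 1.5 times. Without Z and W, the higher count went from 3 to 1 for cholesterol synthesis and from 2 to 1 for creatine and methyl supply. Single FPKM values have no error here, and low genes are limited most, since the reads behind them are not known.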

Other observations

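Families of genes that no list covered were looked at after their values were seen, and they are given without a test. Their counts are to be read against all genes, of which 10.9% were higher and 10.3% lower, with a median log2 ratio of 0.06. Gallinacins and cathelicidins, peptides of granulocytes that kill microbes, were lower at D1 in all 6 members that were measured, out of 13 with an entry. GAL1 had an FPKM of 10.9 at E16 and of 0.649 at D1, GAL2 at 6.62 and 1.28, GAL7 at 6.41 and 0.406, CATHL1 at 3.90 and 0.581 and CATHL2 at 4.48 and 0.488, and GAL4 at 1.10 and a listed 0. All but GAL2 were below 1 at D1 and were measured only through their level at E16. For these the lower side was thus set by the filter. Among opioid precursors, PENK and PNOC were measured, out of 4 with an entry, and both were lower. Of 14 ASB genes, which bring substrates to ubiquitin ligases, 5 were higher and 1 lower (median log2 ratio -0.02). ASB4 stood at 0.319 and 11.0 (4.73), ASB11 at 1.04 and 12.2 (3.43) and ASB15 at 3.42 and 14.7 (2.07), and ASB18 at 7.15 and 0.966 (-2.77). Of 29 kelch genes named KLHL, 8 were higher and 1 lower (median 0.12). KLHL34 stood at 5.38 and 46.2 (3.08) and KLHL24 at 33.4 and 157 (2.24). Of 29 mitochondrial carriers named SLC25A, 7 were higher and 1 lower (median 0.56), and beside SLC25A4 the ornithine carrier SLC25A15 stood at 2.82 and 43.1 (3.89), SLC25A30 at 5.29 and 39.2 (2.86) and the phosphate carrier SLC25A3 at 235 and 813 (1.79).

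Genes at least 4-fold higher at D1 lay near each other in part. Among 9709 genes with a symbol, 24 of the 205 at least 4-fold higher (11.7%) had another such gene within 50 kb, while 5.29% of all 9709 had one within that distance. On the lower side these were 32 of 241 (13.3%) and 5.95%. ASB4 lies 12.7 kb from PDK4, KLHL38 lies 28.1 kb from FBXO32, and PDHA1 lies 1.13 kb from MAP3K15, which had a log2 ratio of 3.84. On the lower side CRABP2, which binds retinoic acid, lies 12.9 kb from NES (-3.96 and -5.08) and SPP1 lies 12.7 kb from IBSP (-3.58 and -3.91). Tandem copies such as the gallinacins are among these pairs, and strand was not used, so reads of overlapping loci cannot be told apart. Some of these genes were below an FPKM of 1 at the lower stage, such as ASB4 and KLHL38 at E16 and SPP1 and IBSP at D1. For them the filter set the side, and the shares without such genes were not counted. Next to REV-ERBb on chromosome 2 lies the entry listed as cTR, at the place where RefSeq has the thyroid hormone receptor THRB, and it had an FPKM of 0.0581 at E16 and of 1.42 at D1 (3.27).

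Transcripts of 1 gene seldom went apart. Of 355 genes with at least 2 measured transcripts, 7 had transcripts at least 2-fold higher and lower at once. Of these, 5 had no listed 0: CDH1-A, H2AFY, kcnma1, MXRA7 and ST3GAL2. The higher transcripts of H2AFY and ST3GAL2 nonetheless stood at an FPKM of only 0.0024 and 3.86e-05 at E16. In kcnma1, a calcium-activated potassium channel, 1 transcript had an FPKM of 9.64 at E16 and of 2.58 at D1 while another stood at 12.1 and 39.1. How Cufflinks divides reads among transcripts of a gene bears on such values, and its part was not tested.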
